A study of Mus musculus with 6 samples.

Results

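Heat shock proteins and chaperones were described in the cerebellum of mice lacking L1cam and of their wild type siblings. A probe set belonged to the family where its only gene symbol in the array annotation began with Hsp, Dnaj or Cct followed by a family letter or number, or was Xbp1 or Calr. The rule gave 79 probe sets of 57 genes, out of 10833 probe sets with 1 symbol, which stand for 8251 genes. Another 2 probe sets, annotated to Dnajc19 together with a pseudogene, were left out because they carry several symbols. Hsp90ab1, the constitutive cytosolic HSP90, was matched by none of these probe sets and is not analysed here.

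The arrays were Affymetrix U74Av2 gene chips, 1 for each mouse, hybridised with total RNA of whole cerebellum at postnatal day 11. The 3 knockout mice were labelled L1cam -/Y and male, and the 3 wild type mice had no sex label. All 6 were labelled strain 129S2/SvPasCrlf. L1cam is an X-linked cell adhesion molecule of growing axons, and which part of the gene was altered is not given in the sources used here. The question behind the comparison is how loss of L1cam affects gene expression in this tissue.

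Chaperones bind unfolded or partly folded proteins and help them reach or keep their structure. In the cytosol, HSP70 proteins bind exposed hydrophobic stretches in a cycle driven by ATP, J proteins deliver the clients and start the hydrolysis, HSP110 proteins exchange the nucleotide, and HSP90 acts on late folding states of kinases and receptors. Transcription of the inducible members is driven by the factor HSF1, which binds heat shock elements in their promoters. In the endoplasmic reticulum, Hspa5 (BiP), Hsp90b1 (GRP94) and Calr fold secreted and membrane proteins, and their genes are raised in the unfolded protein response by ATF6 and by spliced Xbp1. The ring-shaped chaperonin CCT folds actin and tubulin, the building blocks of the cytoskeleton that growing neurites need, and a separate chaperonin, Hspd1 with its lid Hspe1, works inside mitochondria.

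Promoter elements of the heat shock and unfolded protein responses were looked for in the members. RefSeq promoter windows of build GRCm38.p6, from 250 bases before to 50 bases after each start, were held for 49 of the 57 genes. They were searched on both strands for GAANNTTCNNGAA, a run of 3 heat shock element units, and for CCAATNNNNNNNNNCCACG, the endoplasmic reticulum stress element. These motifs did not overlap each other in any member. The first was found in Dnajb6, Hspd1, Hspe1 and Hsph1 (8.16% of the 49 member genes with windows, against 0.662% of the 27025 genes with windows and 0.603% of 32851 windows). The second was found in Calr, Dnajc3, Hsp90b1 and Hspa5 (8.16%, against 0.137% of genes and 0.119% of windows). In the first share Hspd1 and Hspe1 count as separate genes although they share the same stretch. The stretches around the endoplasmic reticulum element are shown because they sit before the genes whose values are given next. Each runs 5′ to 3′ on the gene's own strand, with the match in capitals, and where the match is on the opposite strand the capitals read CGTGG first.
Hspa5, chr2:34771985-34772083, plus strand: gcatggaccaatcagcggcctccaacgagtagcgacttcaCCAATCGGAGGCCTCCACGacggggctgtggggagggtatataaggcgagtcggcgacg
Hsp90b1, chr10:86705493-86705694, minus strand: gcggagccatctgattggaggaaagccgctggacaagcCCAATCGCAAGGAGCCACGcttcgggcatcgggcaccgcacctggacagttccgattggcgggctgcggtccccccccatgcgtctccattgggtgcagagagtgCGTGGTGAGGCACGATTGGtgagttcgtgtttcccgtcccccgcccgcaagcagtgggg
Calr, chr8:84847035-84847133, minus strand: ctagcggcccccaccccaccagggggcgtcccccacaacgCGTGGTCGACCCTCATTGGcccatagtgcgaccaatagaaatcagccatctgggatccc
Dnajc3, chr14:118937787-118937885, plus strand: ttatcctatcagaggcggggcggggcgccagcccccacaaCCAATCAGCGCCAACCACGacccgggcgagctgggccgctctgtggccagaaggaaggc

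The match lay 47 to 65 bases upstream of the Hspa5 start, 87 to 105 before Dnajc3 and 144 to 162 before Calr. Hsp90b1 held a pair of them, 89 to 107 and 194 to 212 bases upstream. The heat shock element of the mitochondrial chaperonin is shown because a single stretch serves both of its genes, which are read away from each other. The capitals cover 2 overlapping matches, and the Hspe1 line is the same bases as the Hspd1 line on the other strand. In Dnajb6, a J protein that keeps aggregating proteins soluble, the match lay 115 to 127 or 34 to 46 bases upstream, depending on the annotated start. In Hsph1 it lay after the start.
Hspd1, chr1:55088019-55088116, minus strand: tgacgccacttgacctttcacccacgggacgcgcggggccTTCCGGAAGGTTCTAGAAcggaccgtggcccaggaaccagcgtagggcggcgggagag
Hspe1, chr1:55088019-55088116, plus strand: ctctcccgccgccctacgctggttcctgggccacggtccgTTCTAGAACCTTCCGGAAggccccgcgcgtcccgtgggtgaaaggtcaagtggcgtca
Dnajb6, chr5:29735812-29735897, plus strand: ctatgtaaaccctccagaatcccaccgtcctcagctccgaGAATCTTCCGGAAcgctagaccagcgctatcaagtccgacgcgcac

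Some facts of the 6 arrays bear on the values. L1cam itself read 8.79, 8.48 and 8.73 on the log2 scale in wild type mice and 8.25, 8.01 and 7.91 in knockout mice, so every knockout array was below every wild type array (difference -0.60, limma adjusted p = 0.841). Knockout 1 stood apart. Its Gapdh 3′ control probe set exceeded the 5′ one by 0.67 log2, against at most 0.13 on the other arrays, and its readings for the Y-linked genes Eif2s3y and Uty were 7.11 and 6.67, against at least 8.59 and 7.32 elsewhere. The Y-linked readings go against the male -/Y label of that array, while its L1cam reading was below every wild type array. Some of the values that rest on it are therefore also given without it. Where no such value is given, a difference may still depend on knockout 1. Array medians ranged from 8.87 to 8.94. Marker lists were compared by the sum of the log2 readings of their probe sets. In such a sum a gene with several probe sets counts more than once, and opposite changes can cancel. Marker genes of granule neurons (5 of 6 measured, 7 probe sets) summed to 78.9 to 80.9 in wild type and 79.0 to 80.4 in knockout arrays. The granule gene Gabra6 nevertheless spread from 11.30 to 12.28 within wild type. Knockout means were higher at 2 granule probe sets and lower at 5. They ran from -0.26 and -0.23 for Gabra6 to 0.17 for Pax6, and all overlapped between genotypes. Purkinje cell markers (4 of 6) summed to 54.4 to 55.3 and 54.7 to 55.0. The sums for astrocytes (4 of 5), microglia (5 of 5) and endothelium (4 of 4) also overlapped between genotypes. Single glial probe sets did not all overlap. The astrocyte gene Aqp4 lay below wild type in every knockout array at 102704_at (-0.37), while its other probe set overlapped (-0.24). Gfap, also of astrocytes, had higher knockout means (0.26 and 0.15) with overlap. Cx3cr1 of microglia lay below wild type in every knockout array (-0.11). Blood markers (3 of 4) had higher knockout means at all 3 probe sets and summed to 36.6 to 37.2 in wild type and 37.1 to 37.9 in knockout arrays, with Hba-a1 above wild type in every knockout array. Oligodendrocyte markers (4 of 5) had lower knockout means at 4 of 5 probe sets and summed to 49.3 to 50.3 and 48.4 to 49.9. The part of these cell types in the chaperone values was not tested.

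No chaperone probe set passed the test of genotype. With limma and Benjamini-Hochberg adjustment over all 12422 probe sets, 0 of the 79 had an adjusted p under 0.05 and the lowest was 0.885. The share of all probe sets called was also 0%. At an unadjusted p under 0.05, 6 chaperone probe sets read higher in knockout mice, where 2.46% of all probe sets did, and 2 read lower, where 2.62% did. In 5 of the 79 every knockout array lay above every wild type array, against 3.76% of all probe sets, and in 2 every knockout array lay below, against 6.63%. The family's differences were small, from -0.34 for Xbp1 to 0.25 for Cct3, with a median of 0.010 against -0.023 over all probe sets. The median distance from a member's difference to the edge of its 95% interval was 0.16. Knockout means were higher in 42 members and lower in 37. That is 53.2% higher, against 37.7% of all probe sets; with each array centred on its own median the shares were 68.4% and 55.4%. The low-p counts moved with single arrays. Without knockout 1 they were 0 higher and 5 lower, and without wild type 1 they were 2 and 4. Without wild type 2 they were 10 and 1, and without wild type 3 they were 1 and 1. Over all alternatives they ranged from 0 to 10 higher and from 1 to 5 lower. Shares of all probe sets in these fits are not given here, so the movement cannot be called particular to chaperones. RNA came from whole tissue, so fewer cells of a type and less RNA per cell cannot be told apart in any of these values.

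**Figure D1:**
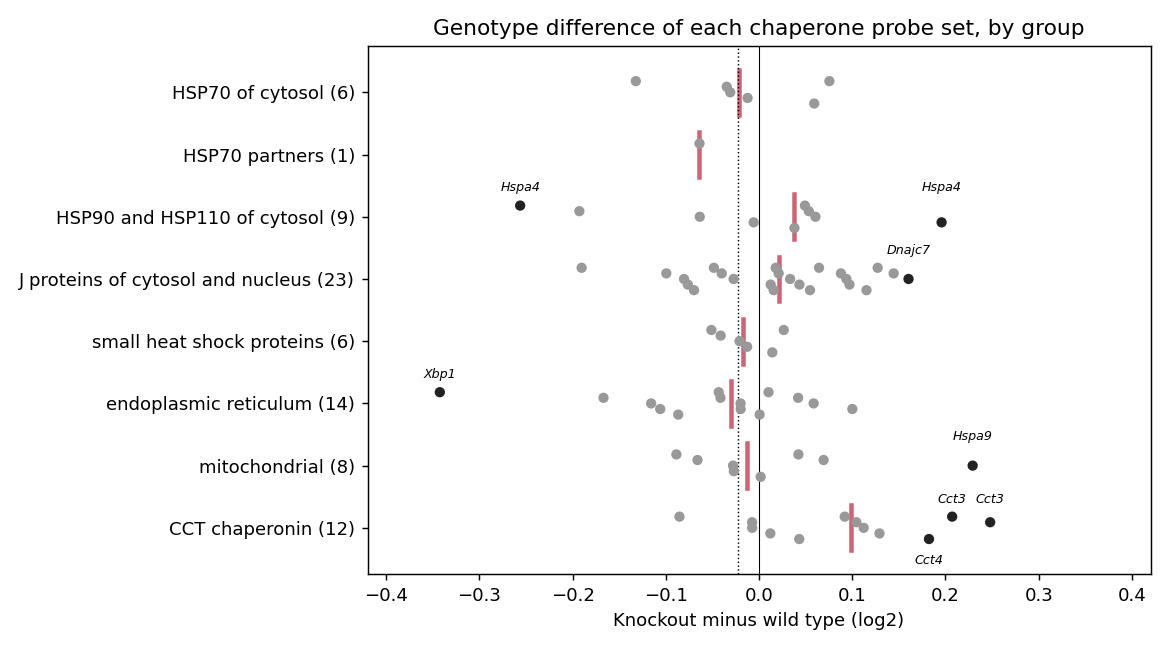
Knockout minus wild type difference (log2, horizontal axis) of each of the 79 chaperone probe sets, 1 point each, by group with the number of probe sets in parentheses. Red bars mark group medians, the dotted line the median of all 12422 probe sets, and black points an unadjusted limma p under 0.05; the CCT points lie mostly to the right of 0 and Xbp1 lies farthest to the left.

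Levels covered most of the range of the array. Of the 79 probe sets, 30 lay above the 75th percentile of mean level and 15 below the 25th, where a probe set is dim and its value may be mostly background. Probe sets differ in how strongly they bind, so a level ranks a probe set among readings and not a gene among transcripts. CCT levels ran from 8.78 to 11.97, with 8 of 12 probe sets above the 75th percentile and 0 below the 25th. The mitochondrial group ran from 8.53 to 12.04 with 0 dim probe sets of 8. In the endoplasmic reticulum group 7 of 14 were dim, with levels from 5.79 to 11.55. Among cytosolic chaperones the HSP90 and HSP110 group ran from 6.11 to 13.36, J proteins from 6.94 to 12.32, HSP70 from 7.26 to 12.03 and small heat shock proteins from 6.26 to 9.94.

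The endoplasmic reticulum group held 14 probe sets of 9 genes, of which 5 read higher and 9 lower in knockout mice. The median difference was -0.031, close to that of all probe sets. Xbp1, the transcription factor spliced by IRE1 in the unfolded protein response, had the widest difference in the family. It read 10.05, 10.48 and 10.62 in wild type mice and 10.25, 9.81 and 10.07 in knockout mice. Wild type 2 and 3 were the 2 highest arrays, but wild type 1 lay among the knockouts, so the groups overlapped. The difference was -0.34 (SE 0.15, 95% interval -0.67 to -0.016, n = 3 a group; limma adjusted p = 0.922; 2-sided exact permutation p = 0.30). It was -0.45 without knockout 1, -0.22 without wild type 3, -0.23 without knockout 2, and -0.51 to -0.22 over all alternatives.

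Hspa5, the HSP70 of the endoplasmic reticulum and the usual marker of the unfolded protein response, read 11.43, 11.64 and 11.84 in wild type mice and 11.73, 11.39 and 11.29 in knockout mice. Knockout 2 and 3 were lowest and knockout 1 was the second highest of the 6, so the groups overlapped. The difference was -0.17 (SE 0.12, 95% interval -0.44 to 0.11; limma adjusted p = 0.932; exact permutation p = 0.40), and it moved with single arrays: it was -0.30 without knockout 1, -0.27 without wild type 1, -0.065 without wild type 3 and -0.076 without knockout 3. Hsp90b1, the HSP90 of this compartment, read 11.13, 11.23 and 11.40 in wild type and 11.35, 11.22 and 11.14 in knockout arrays. Both groups spanned nearly the same range, with a difference of -0.020 (95% interval -0.21 to 0.17). Calr, the calcium-binding lectin calreticulin, read 6.80, 6.89 and 6.89 in wild type and 6.85, 6.87 and 6.73 in knockout arrays. Its probe set was dim, at the 14.5th percentile of level, and the difference was -0.043 (95% interval -0.19 to 0.10).

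The J proteins of this compartment differed little. Dnajc1, a membrane J protein that partners Hspa5, read 7.40, 7.49 and 7.50 in wild type and 7.41, 7.33 and 7.30 in knockout arrays at its probe set 103344_at, with a difference of -0.12 (95% interval -0.25 to 0.023). That probe set was dim, and its groups overlapped only through wild type 1 and knockout 1. Dnajc3 (p58IPK), an inhibitor of the kinase PERK, had 4 probe sets that disagreed. The brightest, 94343_at, read 9.03, 8.90 and 9.08 in wild type and 8.88, 9.004 and 9.13 in knockout arrays, a difference of 0.00066. The other 3 were at the 10.6th percentile of level or below. Of these, 102414_i_at read 6.35, 6.62 and 6.77 against 6.49, 6.61 and 6.38 (difference -0.087). Probe set 102415_r_at read 5.86, 6.07 and 6.11 against 5.92, 5.99 and 5.81 (-0.11), and 161868_r_at read 5.61, 5.94 and 5.66 against 5.92, 5.86 and 5.73 (0.10). All 4 overlapped between genotypes, and the disagreement in sign came from the dim ones. Dnajb9 (0.010 and -0.041), which works with Hspa5, Dnajb11 (0.059), a luminal partner of Hspa5, and Dnajc10 (0.042), a disulfide reductase, also overlapped.

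**Figure D2:**
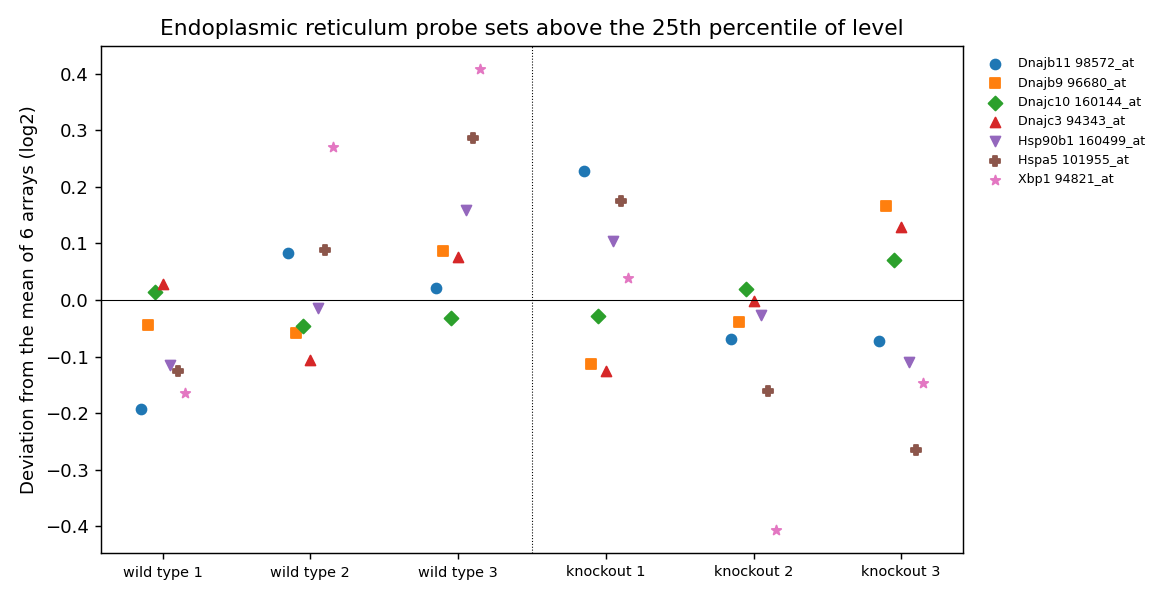
Deviation of each endoplasmic reticulum probe set above the 25th percentile of level from its own mean over 6 arrays (log2, vertical axis), with 1 column of points per array. Xbp1 and Hspa5 were low in knockout 2 and 3 and high in wild type 2 and 3, while Dnajb9 and Dnajc3 were highest in knockout 3.

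Wild type 3 gave the highest of the 6 readings in 8 of the 14 probe sets (57.1%), against 16.9% of all probe sets. These belonged to Xbp1, Hspa5, Hsp90b1, Calr, Dnajc1 and Dnajc3. Those of Calr, Dnajc1 and Dnajc3 were dim, and Dnajc1 and Dnajc3 counted more than once. Some leads were narrow: 6.894 against 6.889 in wild type 2 for Calr, and 6.415 against 6.414 in wild type 1 for Dnajc1 at 94800_at. Array medians of the deviation from each probe set's own mean were -0.070, 0.081 and 0.081 in wild type 1, 2 and 3 and -0.0056, -0.014 and -0.087 in knockout 1, 2 and 3. Without wild type 3, 8 of the 14 read higher in knockout mice, and without wild type 2, 3 did. Choroid plexus, a secretory epithelium next to the cerebellum, varied between the same arrays. Its marker Ttr, the carrier of thyroxine, read 9.71, 12.55 and 12.13 in wild type and 12.56, 12.43 and 10.20 in knockout arrays. Kl, another marker of it, read 7.60, 8.14 and 8.26 against 8.15, 8.26 and 7.53. These 2 of 4 listed markers were measured and summed to 17.3 to 20.7 in wild type and 17.7 to 20.7 in knockout arrays. Both markers were lowest in wild type 1 and knockout 3. Their part in the endoplasmic reticulum values was not tested.

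The other genes of the pathway, a list of 25 endoplasmic reticulum folding and unfolded protein response genes outside the family, gave 21 measured genes and 26 probe sets. None was called by limma. At an unadjusted p under 0.05 there were 0 in either direction, against 2.46% of all probe sets higher and 2.62% lower. Of the list, 12 read higher and 14 lower, and the median difference was -0.018. The 3 with the lowest p were Manf, a secreted stress protein (10.49, 10.64 and 10.65 against 10.60, 10.32 and 10.37, difference -0.16), Creld2, a folding factor of the same response (-0.16), and Edem1, which sends misfolded glycoproteins to degradation (0.14, at a dim probe set). The 7 probe sets of the 4 members with the endoplasmic reticulum element in their window differed by -0.17 to 0.10, with a median of -0.043. Of these 7, 4 were of Dnajc3, and its probe sets other than 94343_at were dim. That of Calr, whose value is the median, was also dim.

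Among the cytosolic chaperones, 24 of 45 probe sets read higher and 21 lower, with a median of 0.014. Hspa8 (HSC70), the constitutive HSP70 that also uncoats clathrin vesicles, read 11.91, 12.02 and 12.18 in wild type and 12.22, 11.99 and 11.88 in knockout arrays. Both groups covered the same range (difference -0.012, 95% interval -0.23 to 0.20). The stress-inducible pair Hspa1a and Hspa1b, near-identical genes whose probe sets can share signal, differed by -0.031 and 0.059. Hspa1b read 7.71, 7.59 and 7.66 against 7.77, 7.60 and 7.77. Hspa2, best known from the testis, read 7.25, 7.49 and 7.23 against 7.25, 7.05 and 7.27 at a dim probe set (-0.13, 95% interval -0.33 to 0.062; -0.050 without wild type 2 and -0.064 without knockout 2). Hspa14, which works at the ribosome, read 8.01, 8.46 and 8.05 against 8.18, 8.32 and 8.24 (0.075). Hspa1l, another HSP70 gene, differed by -0.035. All 6 HSP70 probe sets overlapped between genotypes. Hspbp1, a nucleotide exchange factor for HSP70, read 11.23, 11.22 and 11.16 against 11.10, 11.17 and 11.15, and overlapped through 1 reading of each group (-0.065, 95% interval -0.19 to 0.066).

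Hsp90aa1, the inducible cytosolic HSP90, had the brightest probe set of the family. It read 13.20, 13.29 and 13.52 in wild type and 13.45, 13.33 and 13.38 in knockout arrays, with the knockouts inside the wild type range (0.053, 95% interval -0.13 to 0.24). Its other probe set, 161869_i_at, was dim and read 7.06, 7.11 and 7.39 against 7.16, 7.02 and 6.81 (-0.19, 95% interval -0.43 to 0.045; -0.090 without wild type 3 and -0.099 without knockout 3). Hsph1 (-0.0057) and Hspa4l (-0.064), both of the HSP110 family of nucleotide exchange factors, also overlapped.

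Hspa4, the third HSP110 gene, had 5 probe sets, of which one lay wholly below wild type and one wholly above. The brightest, 96594_at, read 11.73, 11.86 and 11.86 in wild type and 11.70, 11.49 and 11.50 in knockout arrays. Every knockout array was below every wild type array, although knockout 1 was close to wild type 1. The difference was -0.26 (SE 0.075, 95% interval -0.42 to -0.089; limma adjusted p = 0.885), and the exact permutation p was 0.10, the smallest that 3 against 3 can give. Probe set 92571_at went the other way, at 7.52, 7.62 and 7.47 in wild type and 7.80, 7.65 and 7.75 in knockout arrays. Its difference was 0.20 (SE 0.068, 95% interval 0.044 to 0.35; limma adjusted p = 0.922; exact permutation p = 0.10). Of the other 3, 100352_at, which was dim, read 6.24, 6.02 and 5.98 against 6.14, 6.22 and 6.07 (0.061). Probe set 100353_g_at read 8.77, 8.76 and 8.78 against 8.86, 8.85 and 8.75 (0.049), and 161745_f_at read 7.82, 7.75 and 7.77 against 7.86, 7.90 and 7.70 (0.038). Without knockout 1 the first was -0.32 and the second 0.16, so Hspa4 had no single direction on this array. Where each probe set lies on the transcript is not given in the sources used here.

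**Figure D3:**
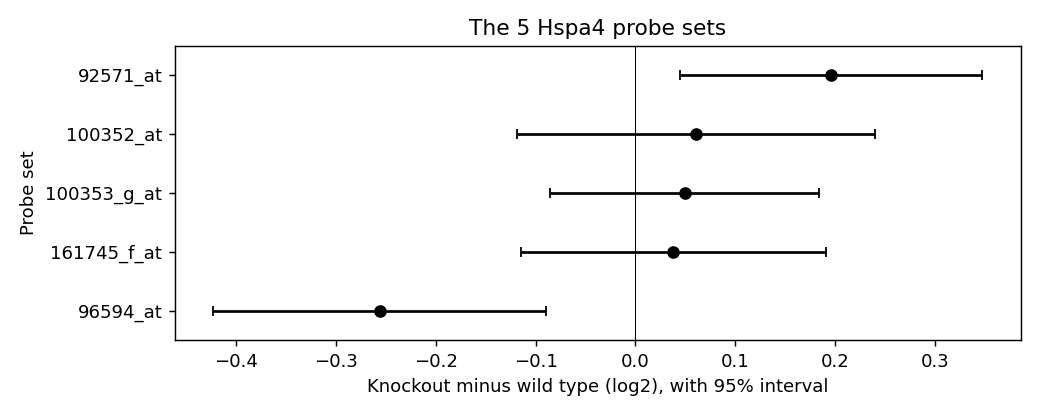
Knockout minus wild type difference (log2, horizontal axis) of the 5 Hspa4 probe sets, each with its 95% interval from limma (n = 3 a group). Probe set 96594_at lies at -0.26 and 92571_at at 0.20, with intervals that leave out 0 on opposite sides, while the other 3 intervals include 0.

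Such disagreement was common at small sizes. Of the 16 member genes with several probe sets, 11 had differences of both signs, but only Hspa4 and Dnajc3 had them with both sizes over 0.1 log2.

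J proteins were the largest group, with 23 probe sets of 18 genes, 15 higher and 8 lower, and a median of 0.021. Dnajc7, which binds both HSP70 and HSP90, read 11.37, 11.53 and 11.45 in wild type and 11.66, 11.50 and 11.67 in knockout arrays. Knockout 1 and 3 were above every wild type array and knockout 2 was not (0.16, SE 0.071, 95% interval 0.0021 to 0.32; limma adjusted p = 0.922; exact permutation p = 0.20). Dnaja2, a partner of Hspa8, read 10.34, 10.49 and 10.34 against 10.44, 10.54 and 10.58 (0.13, 95% interval -0.026 to 0.28), with wild type 2 inside the knockout range. Dnajc13 (RME-8), which works on endosomes, read 7.76, 7.94 and 7.95 against 7.89, 7.38 and 7.81 (-0.19, 95% interval -0.46 to 0.079). Knockout 2 was the lowest array, and the other knockouts lay inside the wild type range. The difference was -0.033 without knockout 2 and -0.29 without knockout 1. Dnajb1 (HSP40), the inducible J protein, read 9.48, 9.42 and 9.34 against 9.55, 9.50 and 9.49, so every knockout array lay just above every wild type array (0.097, 95% interval -0.042 to 0.24; exact permutation p = 0.10).

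The remaining J proteins overlapped between genotypes. Dnaja1, a farnesylated partner of Hspa8, differed by -0.040. Dnajc5, the cysteine string protein of synaptic vesicles, differed by -0.076 and was lowest in knockout 1 and highest in knockout 2. Dnajb6, whose promoter stretch is printed above, differed by 0.094 and 0.033 at its 2 probe sets. Dnajb2, enriched in neurons, differed by 0.021. Dnajc2, which acts at the ribosome with Hspa14, gave -0.099 and 0.016, and Dnajc9, a histone chaperone, gave 0.064. The spliceosomal Dnajc8 differed by 0.012 and 0.055 and Dnajc17 by -0.027. Dnajb4, Dnajb5, Dnajb8 and Dnajc21 lay between -0.070 and 0.088, and Dnajb3 and Dnajb13, known from the testis, between -0.080 and 0.14.

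Small heat shock proteins, which hold unfolded clients without ATP, had differences from -0.051 to 0.027 over 6 probe sets of 4 genes, of which 2 read higher and 4 lower (median -0.017). Hspb8, which works with Bag3 in selective autophagy, read 9.36, 9.37 and 9.37 in wild type and 9.32, 9.35 and 9.29 in knockout arrays at its brighter probe set. Every knockout array lay below, but the difference was -0.051 (95% interval -0.18 to 0.075; exact permutation p = 0.10). Hspb2, best known from muscle, read 10.02, 9.88 and 9.99 against 9.98, 9.96 and 9.82 at 103215_g_at (-0.041). Hspb1 (HSP27), which is induced by stress, read 6.33, 6.29 and 6.14 against 6.27, 6.35 and 6.21 at a dim probe set (0.027). Hspb11, known as an intraflagellar transport subunit, differed by -0.013.

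Of the heat shock factors and cytosolic cochaperones outside the family, 15 of 20 listed genes were measured by 22 probe sets, with 8 higher, 14 lower and a median of -0.012. None was called by limma. At an unadjusted p under 0.05, where 2.46% of all probe sets were higher and 2.62% lower, 0 were higher and 2 lower. The latter were Chordc1, an HSP90 cochaperone, at 160330_at (10.51, 10.65 and 10.72 against 10.33, 10.09 and 10.54, difference -0.31), and Cryab, a small heat shock protein of glia and lens, at 162308_f_at (8.90, 8.84 and 8.83 against 8.63, 8.75 and 8.56, difference -0.21). The second Chordc1 probe set differed by -0.17, whereas the second Cryab probe set differed by -0.00021. The 6 probe sets of the 4 members with the heat shock element in their window differed by -0.028 to 0.094, with a median of 0.018.

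In the CCT chaperonin, 9 of 12 probe sets read higher in knockout mice and 3 lower, with a median difference of 0.098 against -0.023 over all probe sets. The probe sets stand for 8 genes, Cct2 to Cct8 with Cct6 as a pair of genes. Cct3, the gamma subunit, read 10.54, 10.72 and 10.60 in wild type and 11.03, 10.80 and 10.78 in knockout arrays at 98446_s_at. Every knockout array was above every wild type array, and knockout 1 was the highest (0.25, SE 0.083, 95% interval 0.064 to 0.43; limma adjusted p = 0.922; exact permutation p = 0.10). A second Cct3 probe set, 98153_at, read 10.05, 10.18 and 10.05 against 10.44, 10.17 and 10.30, with an overlap between wild type 2 and knockout 2 (0.21, 95% interval 0.030 to 0.38). Knockout 1 was again the highest array, and the difference ranged from 0.14 to 0.27 over all alternatives. The third, 161238_f_at, differed by 0.043. Cct4, the delta subunit, read 11.13, 11.15 and 11.14 in wild type and 11.46, 11.22 and 11.29 in knockout arrays. The wild type readings were almost equal and all knockouts lay above them (0.18, SE 0.071, 95% interval 0.025 to 0.34; limma adjusted p = 0.922; exact permutation p = 0.10).

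The other subunits overlapped between genotypes. Cct8 differed by 0.13, Cct7 by 0.10 and Cct2 by 0.012. Cct5 gave 0.092 and -0.0074 at its 2 probe sets, and Cct6a gave 0.11 and -0.0074. Cct6b, the form of subunit 6 known from the testis, differed by -0.085, and without it the median was 0.10. Tcp1, the alpha subunit, falls outside the naming pattern and differed by 0.014, and by -0.041 at a dim probe set.

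Knockout 1, the array with the wide 3′ to 5′ gap, was the highest of the 6 in 8 of the 12 CCT probe sets (66.7%), against 15.0% of all probe sets. The median deviation from each probe set's own mean was 0.21 in knockout 1, -0.021 in knockout 2 and 0.0093 in knockout 3, and -0.061, 0.0052 and -0.083 in wild type 1, 2 and 3. Without knockout 1 the CCT median was 0.028 and 8 of 12 probe sets read higher, 7 of them among the 9 that were higher with it. Over all alternatives it ranged from 0.028 to 0.16. Without knockout 1 the difference was 0.17 for Cct3 at 98446_s_at and 0.12 for Cct4. Of the oligodendrocyte markers, 3 of 5 probe sets were lowest in the same array, with a median deviation of -0.26 in knockout 1. The Mbp probe set 96310_at was instead highest there. Astrocyte markers were also at their extremes in knockout 1, with 3 of 6 probe sets highest and 2 lowest. Of the 7 granule neuron probe sets, 2 were highest and 2 lowest there. The part of these cell types in the CCT values, and that of the label of knockout 1, was not tested.

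**Figure D4:**
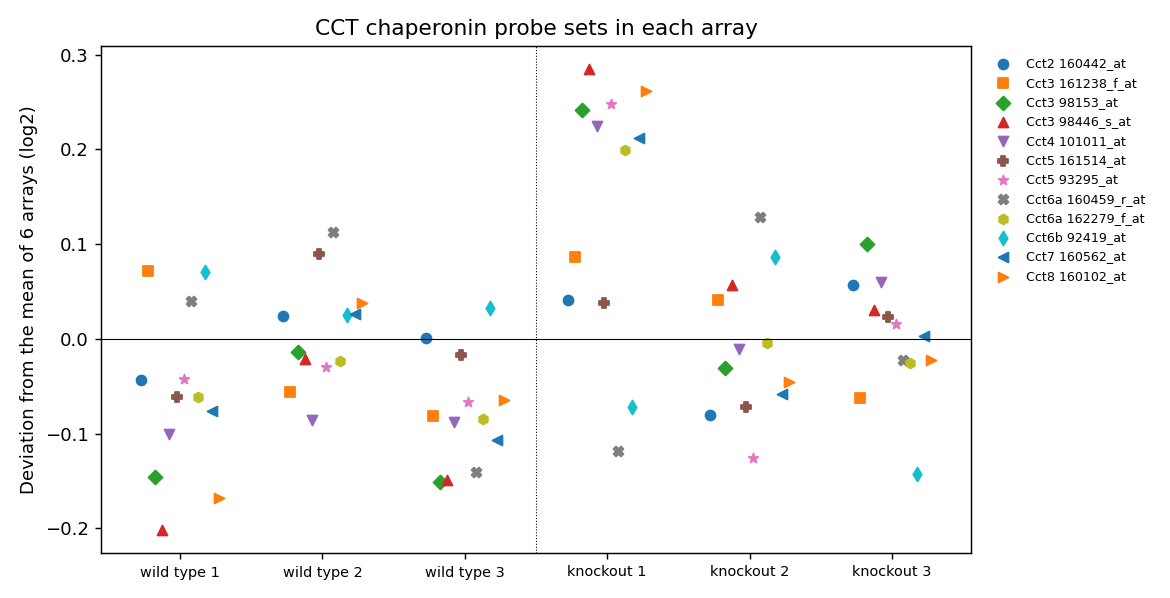
Deviation of each of the 12 CCT probe sets from its own mean over 6 arrays (log2, vertical axis), with 1 column of points per array. Most points of knockout 1 lie above those of the other 5 arrays, and knockout 2 and 3 have medians of -0.021 and 0.0093.

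The clients and helpers of CCT, a list of 12 genes with actin, tubulin and prefoldin, gave 10 measured genes and 14 probe sets, 9 higher and 5 lower, with a median of 0.025. None was called by limma, and 0 had an unadjusted p under 0.05 in either direction, against 2.46% of all probe sets higher and 2.62% lower. The lowest p were those of Vbp1, a prefoldin subunit that hands over actin and tubulin (12.37, 12.48 and 12.36 against 12.54, 12.48 and 12.57, difference 0.13), and of the 2 probe sets of Tubb5, a beta-tubulin (0.16 and 0.13). Knockout 1 gave the highest Tubb5 reading at both, and knockout 2 lay inside the wild type range. At 94788_f_at Tubb5 read 13.98, 13.91 and 13.85 in wild type and 14.29, 13.90 and 14.03 in knockout arrays. Actb, the beta-actin gene whose 3′ to 5′ gap was also widest in knockout 1, read 9.84, 9.46 and 9.08 in wild type and 11.24, 9.37 and 9.32 in knockout arrays at 101578_f_at. The difference was 0.52, and only knockout 1 lay above the wild type readings. The part of RNA quality in the CCT values was not tested.

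The mitochondrial group had 4 probe sets higher and 4 lower, with a median of -0.013. Hspa9 (mortalin), the HSP70 that pulls proteins through the inner membrane, read 10.40, 10.46 and 10.24 in wild type and 10.70, 10.46 and 10.61 in knockout arrays. Every knockout array lay above every wild type array, although knockout 2 exceeded wild type 2 by less than 0.01 log2. The difference was 0.23 (SE 0.081, 95% interval 0.048 to 0.41; limma adjusted p = 0.922; exact permutation p = 0.10), and it was 0.17 without knockout 1. The chaperonin it works beside showed no such separation. Hspd1 (HSP60) read 12.05, 12.13 and 11.999 against 12.21, 11.82 and 12.06 at 93277_at (-0.028, 95% interval -0.24 to 0.18), and 10.12, 10.08 and 10.04 against 10.11, 10.18 and 10.07 at 161140_r_at (0.042). Hspe1 (HSP10), which shares the promoter stretch with Hspd1, read 11.10, 11.39 and 11.24 against 11.36, 11.11 and 11.27 (0.0017, 95% interval -0.19 to 0.20).

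Other mitochondrial J proteins also overlapped. Dnajc4 read 8.49, 8.67 and 8.55 against 8.49, 8.53 and 8.42 (-0.089), and Dnajc15, which sits at the import motor with Hspa9, read 8.66, 8.85 and 8.82 against 8.94, 8.82 and 8.78 (0.069). Dnaja3, a matrix partner of Hspa9, differed by -0.066 and Dnajc11, of the inner membrane organizing complex, by -0.027.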

How the data were processed

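Total RNA of 6 cerebella, 1 array each, was measured on U74Av2 chips. The deposited values are log2 intensities that the authors made with RMA, per the submitters' processing notes; no source used here gives its version or settings. Replicates are 3 mice a group, and this number limits the precision. Array controls (66 of 12488 probe sets) were left out. Symbols came from the platform annotation: 10833 of the 12422 probe sets tested had 1, 396 several and 1193 none. Differences are knockout minus wild type in log2, fitted with limma 3.58.1 in R 4.3.3 (lmFit and eBayes on genotype) with Benjamini-Hochberg adjustment over all 12422, and exact permutation tests used SciPy 1.17.1. The fit was checked on simulated data with independent noise and no deviation shared across an array. That check covers the code and does not speak to the quality of any array, such as knockout 1.

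Members, groups and gene lists were chosen with earlier results of these data known. Values in every array are given for the best known members, the 3 probe sets with the lowest p in each of 8 groups, and genes whose probe sets disagreed by over 0.1 both ways; Dnajb1 was added after its values were seen. Alternatives were median centring, quantile or cyclic loess normalization, leaving out probe sets under the 40th percentile of level, a trended robust variance, array weights, a replicate block, 1 probe set per gene, gene means, leaving out cross-hybridizing probe sets, and leaving out each array.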

Additional observations from a re-analysis of the deposited data

How the results depend on the processing

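No chaperone probe set was called under any alternative (lowest limma adjusted p 0.424); over all probe sets, leaving out 1 array gave 0 to 1 calls. Whether the replicate numbers pair the mice is not stated in the sources used here. Correlations of deviations from the group means were 0.16, -0.32 and 0.17 for the same number and -0.40 to 0.24 for different numbers. With 3 arrays a group these values are linked and cannot decide it. With the replicate block limma called 0 members, with 5 higher and 2 lower at an unadjusted p under 0.05. The shares of all probe sets at that p with the block are not given here. Of 479 values of 36 named probe sets, 26 turned sign, in 10 probe sets. The causes were not tested. The small heat shock protein median was 0.014 with quantile normalization, 0.015 with median centring, 0.0090 with cyclic loess and -0.041 with the 40th percentile filter, and -0.043 to -0.0043 leaving out 1 array. Median centring gave 0.010 for HSP70 (-0.045 to 0.029 leaving out 1 array), and 0.053 for J proteins. The mitochondrial median was 0.045 with array weights and -0.066 to 0.041 leaving out 1 array. The HSP90 and HSP110 median was -0.035 with 1 probe set per gene and -0.035 with gene means. Hspe1 was -0.0089 with quantile normalization and -0.0094 with cyclic loess. Median centring gave 0.012 for Hsp90b1, 0.0039 for Hspd1 and 0.020 for Hspa8, and array weights gave 0.047 for Hspd1, -0.051 for Dnajc3 and 0.011 for Hspa8. Leaving out 1 array gave -0.0035 to 0.22 for Hspa14, -0.068 to 0.073 for Hspe1, -0.013 to 0.14 for Hsp90aa1, -0.12 to 0.077 for Hspd1, -0.063 to 0.064 for Dnajc3 at 94343_at and -0.20 to 0.0074 at 102414_i_at, -0.030 to 0.064 for Hspb1, -0.11 to 0.062 for Hspa8, -0.082 to 0.055 for Hsp90b1 and -0.082 to 0.0091 for Hspb2. Dim probe sets, 15 of the 79, limit what can be said of Calr, Hspb1 and most of Dnajc3.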
